A study of Mus musculus with 2 samples.

Results

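The proteasome genes of the mouse were taken as the protein-coding genes of the GENCODE M21 annotation whose symbol begins with Psm, a letter from a to g and a number, with the interferon-inducible catalytic subunits Psmb8 and Psmb9 left out. The rule found 48 of 21853 protein-coding genes. By their known roles, 31 of them encode the rings and the cap of the constitutive proteasome, 7 encode assembly chaperones, 4 encode activators and 1 encodes an inhibitor, which makes 43. The other 5 are not constitutive subunit genes. They are Psmb10, the remaining catalytic subunit of the immunoproteasome; Psmb11, the catalytic subunit of the thymic cortex; Psma8, an alpha subunit of the testis; Psme2b, which the annotation marks as a retrogene; and Psmc3ip, a meiotic recombination factor that shares only its symbol with Psmc3.

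The proteasome is the cell's main protease for proteins tagged with ubiquitin. Its barrel, the 20S core, is built of stacked rings of alpha and beta subunits, and a few of the beta subunits cut peptide bonds. The 19S cap binds ubiquitin chains, removes them, and unfolds the substrate with a ring of ATPases before passing it into the barrel. When proteasome activity falls short, the factor Nfe2l1 (also called TCF11 or NRF1) is known to raise the transcription of subunit genes through antioxidant response elements. In T cells the proteasome is known for degrading inhibitors of NF-kB and for making peptides for class I antigen presentation.

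Accessible chromatin was measured by ATAC-seq, in which the transposase Tn5 inserts adapters into open DNA. The cells were inflammation-experienced regulatory T (Treg) cells of 1 adult male mouse, aged 6 months, of the strain Foxp3CreERT2 x Rosa26YFP. Foxp3 drives the inducible Cre recombinase of this strain, and Rosa26YFP is its reporter allele. Per the labels the cells originated from bone marrow hematopoietic cells, while neither the inflammation nor the isolation is described. Both samples are technical replicates of the same biological replicate. They make up 1 group, conditions could not be compared and no test was made.

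The deposited lists of peaks pool both libraries, so each gene has 1 value and no spread between libraries. The main list, filtered by the irreproducible discovery rate (IDR), a measure of how well peaks repeat between 2 ranked sets, held 58138 peaks, which merged into 29415 regions. Of the markers of Treg cells, 4 of 5 had a promoter region (all but Tnfrsf18), and the 5 together had 35 distal regions. Of those of T cells 4 of 5 had one (all but Cd4), with 22 distal regions. Of those of B cells 1 of 4 had one (Pax5), of myeloid cells 0 of 4, and of erythroid cells 2 of 4 (Klf1 and Epor). Over all protein-coding genes the share was 49.7%. The median fold enrichment of these promoter regions was 7.91 for Treg, 11.9 for T, 15.4 for B and 15.6 for erythroid markers. Sequencing depth is unknown.

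A merged region counted as the promoter region of a gene when it touched the window of 1000 bp to each side of a start of one of its protein-coding transcripts. Promoter regions were found at 45 of the 48 proteasome genes (93.8%, 95% exact binomial interval 82.8 to 98.7%), against 49.7% of all protein-coding genes. All 31 ring and cap genes, all 7 chaperone genes, and all 5 activator and inhibitor genes had one. Those without were Psma8, Psmb11 and Psme2b. All intervals here cover counting error only.

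The height of a region is its fold enrichment over background, a linear ratio given by the authors. The 45 proteasome promoters had a median fold of 20.2 (interquartile range 15.5 to 22.0), against 16.4 (12.4 to 20.5) over the 10861 genes with a promoter region. A fold of at least 20, a limit chosen after values had been seen, was reached by 23 of the 48 proteasome genes (47.9%, 33.3 to 62.8%), against 13.7% of all protein-coding genes. Both shares count genes without a promoter region as not reaching it. Among genes with a promoter region, 23 of 45 proteasome genes reached it, against 3003 of 10861 protein-coding genes. Among the 11184 promoter regions of the list, 37 of the 45 proteasome regions stood above the median of 15.2, 24 stood above the upper quartile and 0 lay below the lower quartile. These 11184 also hold the lower regions of genes with several. Against the highest region of each gene, Psme2 (10.7), Psmg3 (10.8), Psme3 (11.2), Psmg1 (11.5) and Psmd9 (12.2) lay below the lower quartile of 12.4. Psmd12 (20.2) and Psmc3ip (19.8) then did not stand above the upper quartile of 20.5. The lowest proteasome fold was 10.7 and the greatest 31.1, while all genes spanned 3.49 to 37.9.

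**Figure D1:**
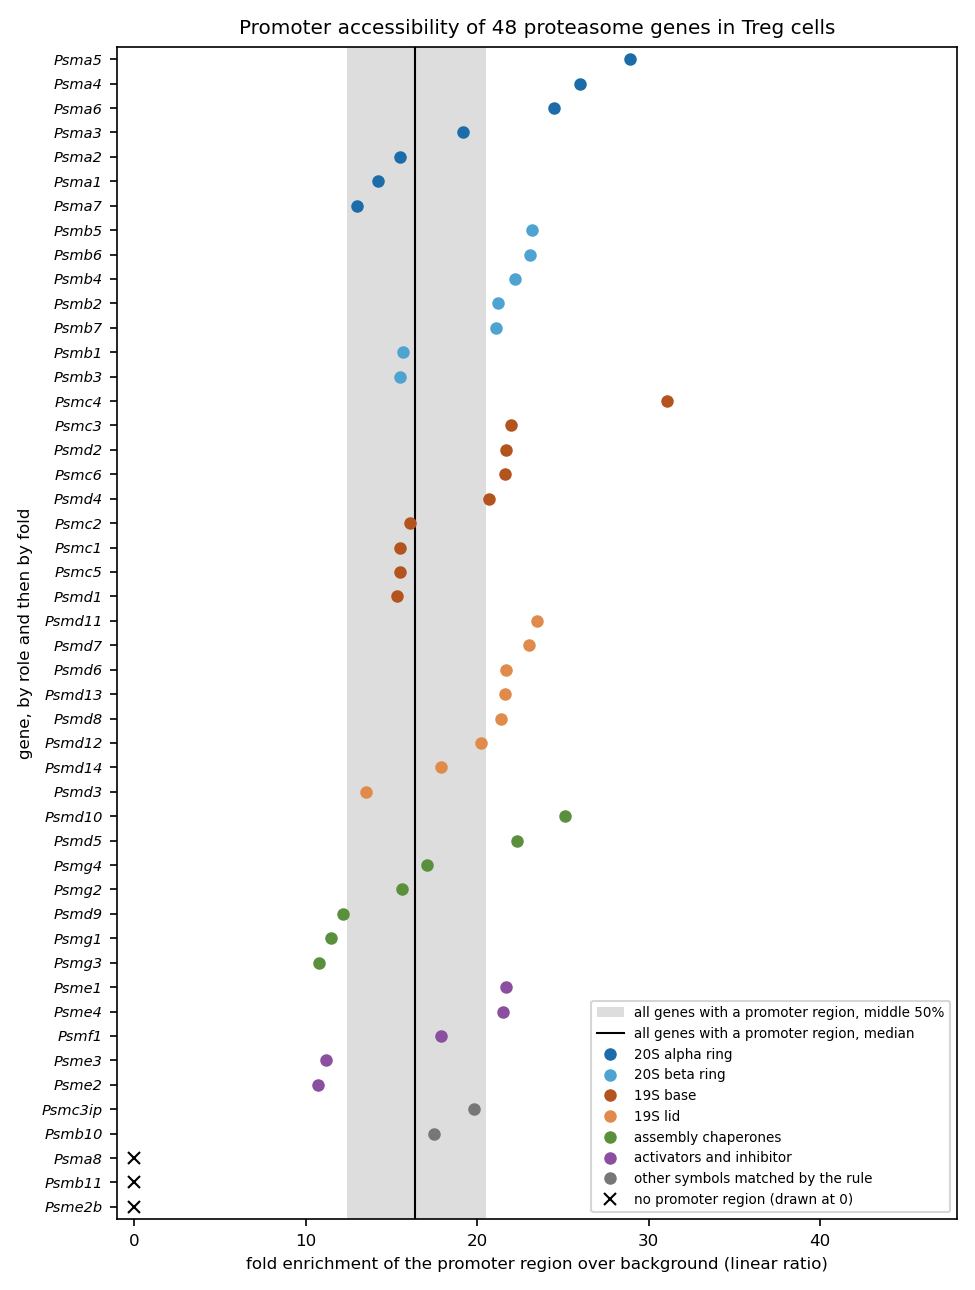
Fold enrichment of the highest promoter region (linear ratio, horizontal axis) of each of the 48 proteasome genes, 1 point a gene, colored by role and ordered by fold within a role. The grey band and the black line give the middle 50% (12.4 to 20.5) and the median (16.4) of all genes with a promoter region; 3 genes without a region are drawn as crosses at 0.

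Nearly all genes of other large machines that most cells need had promoter regions as well. Cytosolic ribosomal protein genes had one at 77 of 81 (95.1%, 87.8 to 98.6%) and oxidative phosphorylation genes at 81 of 89 (91.0%, 83.1 to 96.0%). Their median folds were 18.1 and 18.9, and a fold of at least 20 was reached by 29.6% (20 to 40.8%) of the ribosomal and 36.0% (26.1 to 46.8%) of the oxidative phosphorylation genes. These intervals overlap that of the proteasome genes, and the difference between the sets was not tested.

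**Figure D2:**
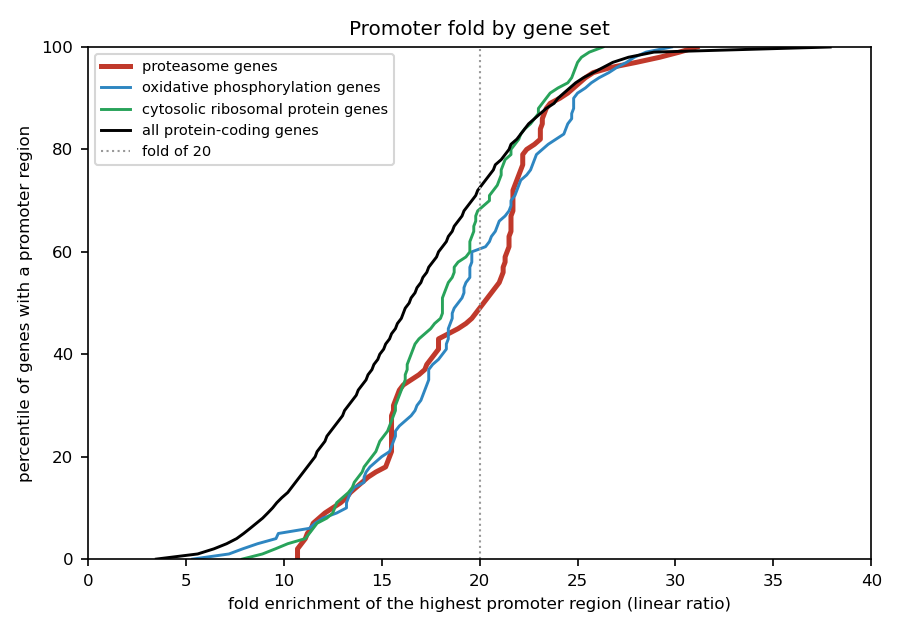
Percentile of genes (vertical axis) against the fold enrichment of their highest promoter region (linear ratio, horizontal axis), for genes with a promoter region only. The red curve of the proteasome genes crosses the 50th percentile at a fold of 20.2, and the black curve of all protein-coding genes crosses it at 16.4.

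The 20S alpha ring forms the gated ends of the barrel, and its 7 genes had a median fold of 19.2. Psma5 stood highest among them with a fold of 28.9 in a single summit 117 bp downstream of its start (chr3:108256665-108257279), at the 99.1 percentile of promoter regions. Psma4 followed with 26.0 and Psma6 with 24.5, while Psma7 had the lowest of the ring with 13.0. Psma7 also had the widest promoter region of all the proteasome genes, 1631 bp with 6 summits, and shared it with Ss18l1. The ring was spread from 13.0 to 28.9. Its proteins take part in equal number, and whether fold follows protein amount was not tested.

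The 7 genes of the 20S beta ring had a median fold of 21.2 and lay closer together, from 15.5 to 23.2. The catalytic subunits stood close to each other. Psmb5, which cuts after hydrophobic residues, had a fold of 23.2. Psmb6, which cuts after acidic residues, had 23.1, and Psmb7, which cuts after basic residues, had 21.1. Their interferon-inducible counterparts had lower folds. Psmb10, which replaces Psmb7 in the immunoproteasome, had a fold of 17.5, with its highest summit 305 bp downstream of the start. The summit nearest to the Psmb10 start, at +2 bp, had a fold of 3.67. At Psmb7 the nearest, at −112 bp, had 5.63, and the 21.1 came from a summit at +116 bp. At Psmb5 and Psmb6 the nearest summit was also the highest. By −log10 p the order was different, with 172 at Psmb10 against 153 at Psmb5, 166 at Psmb6 and 242 at Psmb7. Psmb9 had 16.5 in 1 promoter region, and the highest of 3 promoter regions of Psmb8 had 10.8. Whether they differ beyond error could not be tested, as there was 1 value for each.

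Psmb1, a structural beta subunit, was 1 of 2 members with a pair of promoter regions. The region at a start farther downstream had a fold of 11.7 with the summit at +6 bp. A higher one, with a fold of 15.7, had its summit 85 bp upstream of the annotated 5′ end of the gene. It was shared with Tbp, the gene of the TATA-binding protein.

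In the 19S base, the ring of ATPases and its scaffold, 9 of 9 genes had a promoter region and the median fold was 20.7. Psmc4, an ATPase subunit, had the greatest fold of all proteasome genes, 31.1, at the 99.8 percentile of promoter regions. It was reached in a single summit 59 bp upstream of the start, in a narrow region of 646 bp (chr7:28049801-28050446). The other ATPases were lower, with Psmc3 at 22.0 and Psmc6 at 21.6, and Psmc1, Psmc2 and Psmc5 between 15.5 and 16.1. The scaffold subunit Psmd2 had a fold of 21.7, the ubiquitin receptor Psmd4 had 20.7 and Psmd1, also a scaffold subunit, had 15.3.

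The 19S lid, which holds the deubiquitinase, had a median fold of 21.5 over its 8 genes, of which 6 reached 20. Psmd11 was highest with 23.5 and Psmd3 lowest with 13.5. Psmd14, the deubiquitinase itself, had 17.9. In all, 19 of the 31 ring and cap genes reached a fold of 20. Over all protein-coding genes the share was 13.7%, or 3003 of the 10861 with a promoter region.

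Assembly chaperones help to build the barrel and the cap and then leave. Their 7 promoters had a median fold of 15.6. A fold of 20 was reached by 2 of 7, against 13.7% of all protein-coding genes and 3003 of the 10861 with a promoter region. The 4 chaperones of the barrel, Psmg1 to Psmg4, ranged from 10.8 to 17.1 with a median of 13.5. Of the 3 chaperones of the cap, Psmd10 had a fold of 25.1 and Psmd5 22.3, while Psmd9 had 12.2. Psmg3 (10.8), Psmg1 (11.5) and Psmd9 were among the 6 lowest members. Psmg3 and Psmd9 also had the lowest −log10 p of all members, 53.1 and 43.2, against a median of 225 over the 45.

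Activators bind the ends of the barrel in place of the cap. Psme1 and Psme2 encode the subunits of the interferon-inducible activator, which join into 1 ring, and their nearest coding starts lie 12512 bp apart on chromosome 14. Psme1 had a fold of 21.7, and Psme2 had 10.7, the lowest of all members. The summit of greatest fold in the Psme2 region (chr14:55590844-55591908) lay 528 bp upstream of its start and nearer to Rnf31, with which the region is shared. The summit nearest to the Psme2 start, at +22 bp, had a fold of 7.04, and a second region 880 bp downstream of the start had 4.37. At Psme1 the summit nearest to a start, at +46 bp, had a fold of 3.5, below the 7.04 of Psme2. The 21.7 of Psme1 came from a summit at +87 bp. Psme3, the nuclear activator, had 11.2 with 5 summits over 1344 bp. Psme4, an activator that binds alone as a single large chain, had 21.5, and the inhibitor Psmf1 had 17.9.

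At the 3 genes without a promoter region, the pseudoreplicated and ranked lists held 0 promoter regions as well, and 0 distal regions were assigned to them. The nearer of the coding starts of Psmb11 lies 3411 bp from the Psmb5 start, on the opposite strand. The nearest region to that gene was the Psmb5 promoter region, with its summit 3405 bp away, so the catalytic subunit of most cells was accessible and its thymic counterpart in the same stretch of chromosome 14 was not in any list. The summit of the nearest region lay 12557 bp from the start of Psme2b and 23349 bp from that of Psma8. An absent peak means that none was called at this unknown depth.

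The list was filtered on how well peaks repeat between the 2 ranked sets of reads, so similar values in both sets were selected for, and what the sets are is not stated. At the proteasome promoters the −log10 p of the sets differed by a factor of 1.20 at the median and at most 1.78 (Psmf1), against a median of 1.16 over the 9677 highest promoter regions of all genes. The factor was at most 1.5 in 40 of 45 (88.9%), against 91% over all genes. At Psmc4 the −log10 p was 185 in the first set and 205 in the second, at Psma5 302 and 258, at Psmb5 76.0 and 77.9, and at Psme2 91.0 and 97.1. The order of members depended on the measure. By −log10 p the median of the proteasome promoters stood at the 61.7 percentile of promoter regions, against the 77.3 percentile by fold. Psmb5, at the 89.4 percentile by fold, stood at the 45 percentile by −log10 p.

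The median width of the proteasome promoter regions was 935 bp, against 948 bp over all genes with a promoter region. All 45 covered the start nearest to their summit, reaching a median of 409 bp upstream and 525 bp downstream. Neither the cover nor the reach was set against all genes. The summit of greatest fold lay at a median of −24 bp, against −40 bp, and within 150 bp of a start in 39 of 45 (86.7%, 73.2 to 94.9%), against 75.6% of all genes with a promoter region. It lay that close in 89.6% of the ribosomal and 88.9% of the oxidative phosphorylation genes with a promoter region. The exceptions among the proteasome genes were Psmb10, Psmd1, Psmd3, Psme2, Psme3 and Psmg2. Each of these had another summit closer to its start, so that 45 of 45 had some summit within 150 bp, against 87.5% of all genes with a promoter region. At least 3 summits were called in 28 of 45 (62.2%, 46.5 to 76.2%), against 53.5%. Across the 45 members fold and width had a Spearman correlation of −0.325, against −0.0576 across all genes. Both come from the same peaks of the same pooled libraries, and genes are not replicates.

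**Figure D3:**
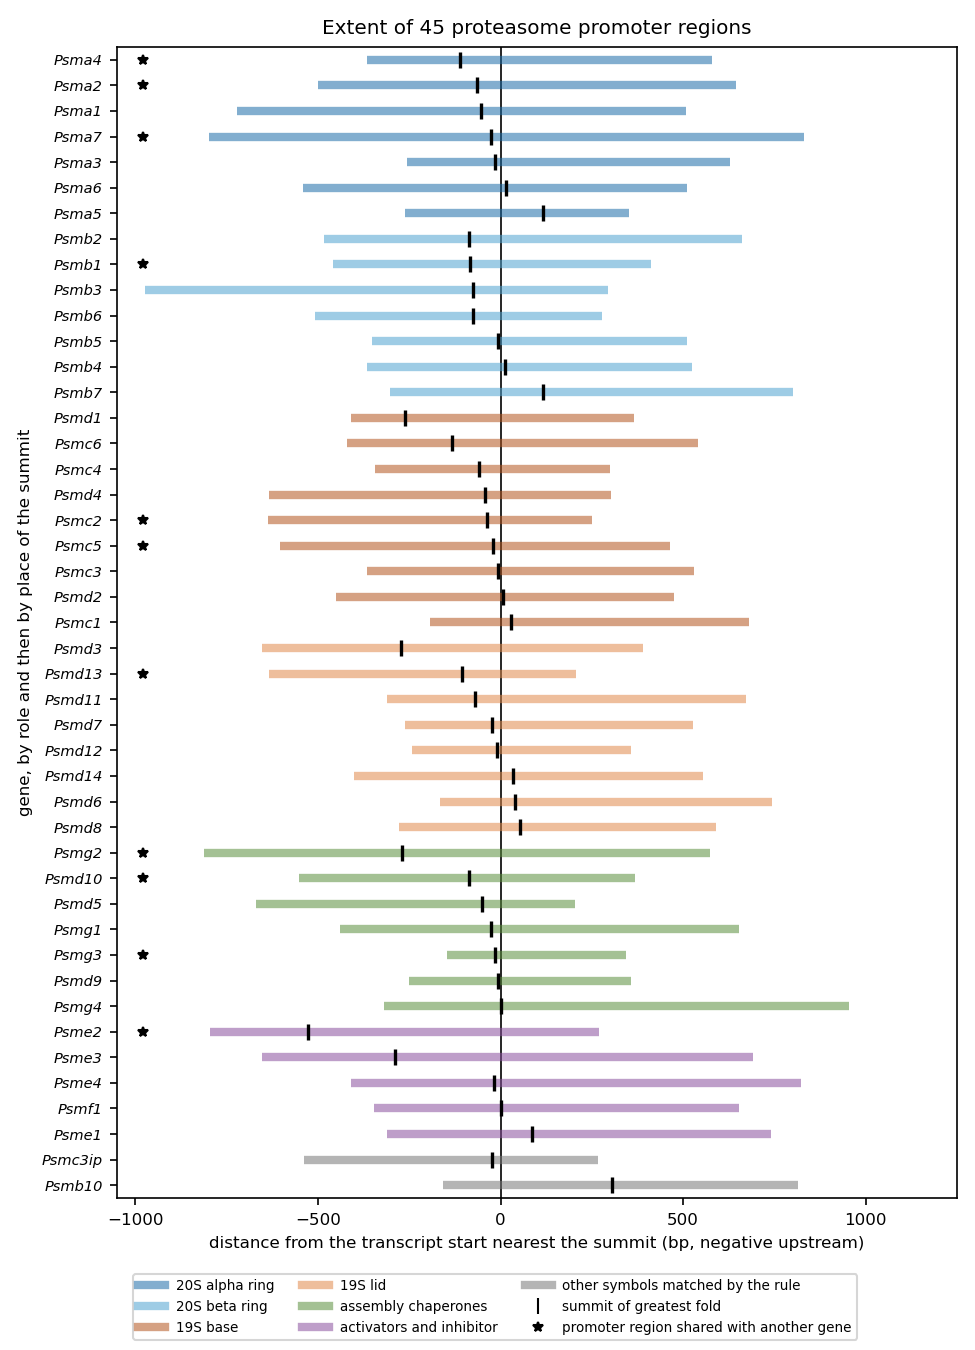
Extent of the highest promoter region of 45 proteasome genes, 1 bar a gene colored by role, along the distance from the nearest transcript start in bp (negative upstream). Black ticks mark the summit of greatest fold, which lay within 150 bp of the start in 39 of 45, and stars mark the 11 genes with a shared promoter region.

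Several proteasome genes share their promoter region with a neighbor. This held for 11 of 45 (24.4%, 12.9 to 39.5%), against 23.0% of all genes with a promoter region. The partners were Mrpl32 at Psma2, AY074887 at Psma4, Ss18l1 at Psma7, Tbp at Psmb1, Dnajc2 at Psmc2, Ftsj3 at Psmc5, Atg4a at Psmd10, Sirt3 at Psmd13, Rnf31 at Psme2, Cep76 at Psmg2 and Gm26938 at Psmg3. The sharing members had a median fold of 15.6 (n = 11) and the others 21.1 (n = 34). Over all genes the order was the other way round, with 17.3 at shared and 16.1 at other promoters, and neither difference was tested. Among the partners, Mrpl32 encodes a mitochondrial ribosomal protein, Sirt3 a mitochondrial deacetylase and Rnf31 a subunit of a ubiquitin ligase complex.

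Promoters rich in CpG pairs are commonly open in many tissues. The promoter sequence of RefSeq, 250 bases before to 50 bases after the start, matched 40 of the 48 members, and Psma8, Psmb1, Psmb2, Psmb7, Psmc3, Psmd3, Psmd7 and Psmg2 were not matched. Of these 40, 30 (75%) had an observed over expected CpG ratio of at least 0.6, against 50.9% of all genes with a RefSeq promoter. All 30 had a promoter region, against 81.0% of the CpG-rich promoters of all genes, and their median fold was 20, against 16.7. Ribosomal promoters were CpG-rich in 86.9% and oxidative phosphorylation promoters in 81.2%. Of these, 50 of 53 (median fold 16.9) and 56 of 56 (18.9) had a promoter region. Among the 10 proteasome promoters poor in CpG 8 had a promoter region, against 23.3% of such promoters overall. The pair without one, Psme2b (ratio 0.0904) and Psmb11 (0.165), had the lowest ratios. Psmb10 (0.192) came next and did have a region. Across 38 accessible members fold and CpG ratio had a Spearman correlation of 0.0857.

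The following stretches, from RefSeq on GRCm38.p6 and written along the strand of the gene, end before the first annotated exon base. Psmc4 is shown as the highest promoter (chr7:28050102-28050342, minus strand), Psmb5 as a catalytic subunit with an antioxidant response element (chr14:54618023-54618245, minus strand), and Psmc6 as a cap subunit with several motifs (chr14:45329574-45329787, plus strand). Capitals mark a GC box in Psmc4, the antioxidant response element in Psmb5, and in Psmc6, from left to right, the antioxidant response element on the opposite strand, the ETS core overlapping a GC box, and a pair of GC boxes on the opposite strand.
Psmc4: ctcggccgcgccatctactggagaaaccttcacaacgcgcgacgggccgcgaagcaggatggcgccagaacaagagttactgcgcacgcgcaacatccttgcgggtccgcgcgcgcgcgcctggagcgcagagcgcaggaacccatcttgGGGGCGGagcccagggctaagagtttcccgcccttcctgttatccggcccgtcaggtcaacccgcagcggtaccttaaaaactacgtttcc
Psmb5: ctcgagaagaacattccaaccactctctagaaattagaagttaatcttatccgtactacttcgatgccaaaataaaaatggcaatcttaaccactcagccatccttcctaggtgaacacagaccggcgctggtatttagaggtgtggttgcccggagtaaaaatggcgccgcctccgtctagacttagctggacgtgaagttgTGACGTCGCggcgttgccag
Psmc6: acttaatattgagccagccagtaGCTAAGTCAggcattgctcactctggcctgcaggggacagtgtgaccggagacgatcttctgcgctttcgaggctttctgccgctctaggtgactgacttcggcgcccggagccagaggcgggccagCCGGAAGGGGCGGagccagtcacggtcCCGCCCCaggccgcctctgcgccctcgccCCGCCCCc

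All motifs were searched on both strands of the RefSeq promoters, and a match describes letters only, not a bound site. The antioxidant response element core TGACNNNGC was found in 6 of 40 proteasome promoters (15%, 5.71 to 29.8%), against 13.4% of all promoters and 15% of those with an accessible region. The extended form TGACTCAGC was found in 0 of 40 (0 to 8.81%), against 0.373%. Both of these shares of other promoters lie inside the interval of the proteasome genes. The reading depended on the window. Around the summit, 150 bp to each side, 9 of 38 held the core (23.7%, 11.4 to 40.2%), against 15.7% of accessible promoters. Within 500 bp of the start 22 of 40 did (55%, 38.5 to 70.7%), against 34.7% of all and 37.3% of accessible promoters, both below that interval. The 6 matches all lay inside the promoter region and upstream of the RefSeq start, though that of Psme4 lay downstream of the GENCODE start used for its summit. They were 10 to 190 bp from the summit with a median of 47 bp, and are printed with up to 10 bases on either side, the element in capitals and read along its own strand.
Psmb5: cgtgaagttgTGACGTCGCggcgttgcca
Psmb6: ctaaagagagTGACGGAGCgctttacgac
Psmc6: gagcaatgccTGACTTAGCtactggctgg
Psmd12: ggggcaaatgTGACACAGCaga
Psmd9: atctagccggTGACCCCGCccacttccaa
Psme4: gctcttctggTGACGCTGCagccgcagcg
The match nearest to its summit was that of Psmb5, at 10 bp, and the farthest that of Psmd12.

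The ETS core CCGGAAG, bound by a family of factors with many members in T cells, was found in 15 of 40 proteasome promoters (37.5%, 22.7 to 54.2%), against 12.6% of all promoters. Accessible promoters held it in 21.2%, and accessible promoters rich in CpG in 24.1%. After these counts had been seen, the members were split by complex. The core was present at 9 of 14 genes of the 19S cap (64.3%, 35.1 to 87.2%) and at 1 of 11 genes of the 20S rings (9.09%, 0.230 to 41.3%), the single one being Psma6. The cap genes with the core were Psmc1, Psmc2, Psmc6, Psmd2 and Psmd4 in the base and Psmd6, Psmd11, Psmd12 and Psmd13 in the lid. The others were Psmg1, Psmg3, Psme3, Psme4 and Psmc3ip. For each cap gene the match nearest to its summit is printed with 10 bases on either side and the core in capitals, read along the strand of the core.
Psmc1: atcgccaccgCCGGAAGtgcatccacc
Psmc2: gagccccatcCCGGAAGtgctcactgg
Psmc6: ggcgggccagCCGGAAGgggcggagcc
Psmd2: gtcctccagaCCGGAAGcgccctgcgg
Psmd4: tacagctgttCCGGAAGctgctgcgaa
Psmd6: agagacgcgaCCGGAAGtcagactggc
Psmd11: aaacacacacCCGGAAGacccgccctc
Psmd12: gtcactcgcaCCGGAAGtcgcccgctc
Psmd13: gcccgcggtgCCGGAAGtgagcgagca
All 9 lay inside the promoter region of their gene, from 5 bp (Psmc1) to 79 bp (Psmd4) from its summit. Within 150 bp of the summit, the core was present at 10 of 14 cap genes (71.4%) and 1 of 11 ring genes (9.09%), against 23.4% of all accessible promoters. The split was made after the matches were known, and the difference between cap and rings is a description that was not tested.

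**Figure D4:**
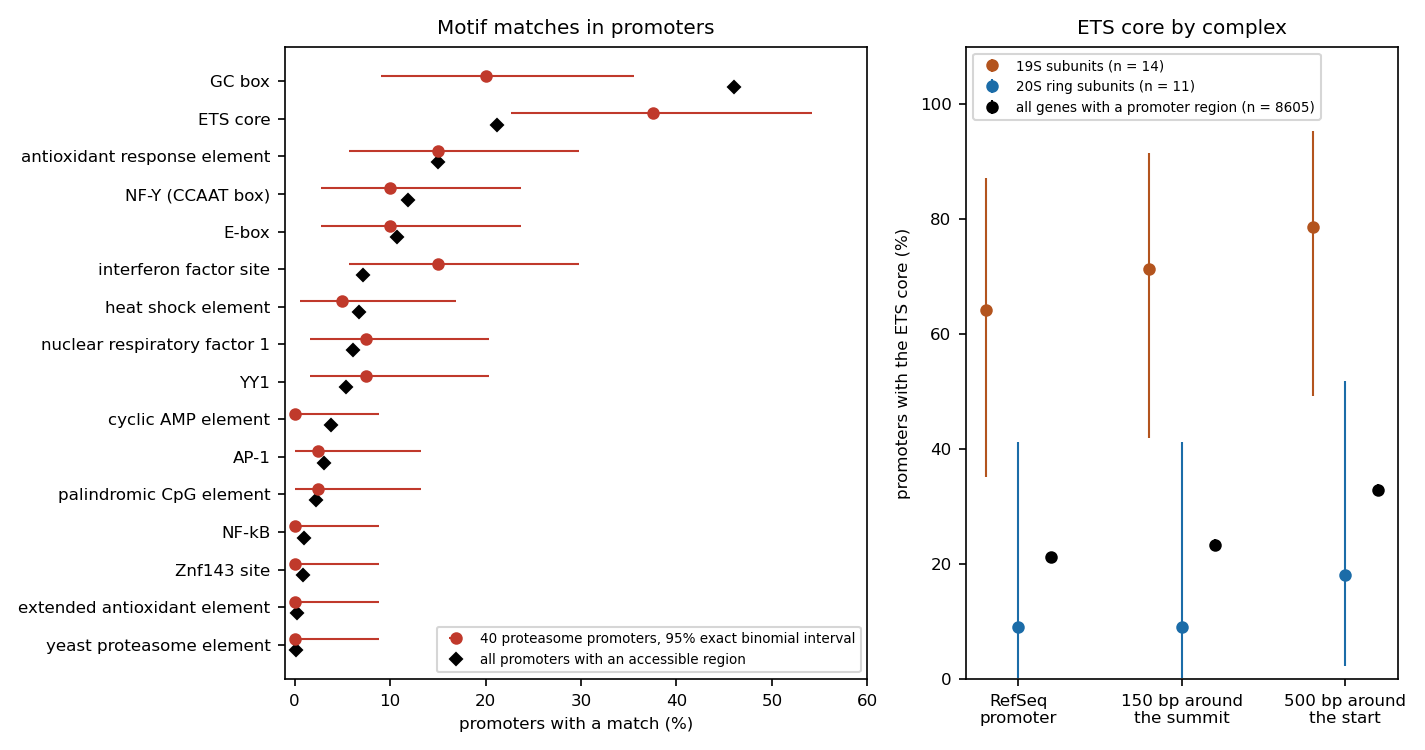
Left, share of promoters with a match (percent, horizontal axis) for 16 motifs, as red points with 95% exact binomial intervals for 40 proteasome promoters and as black diamonds for all promoters with an accessible region. Right, share of promoters with the ETS core (percent, vertical axis) in 3 windows, for 14 genes of the 19S cap, 11 of the 20S rings and 8605 genes with a promoter region; the cap stands at 64.3%, 71.4% and 78.6%.

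The GC box GGGGCGG, bound by Sp and KLF factors, was found in 8 of 40 proteasome promoters (20%, 9.05 to 35.6%), against 32.9% of all promoters, 46.0% of the accessible and 51.6% of the accessible CpG-rich ones. The share in all promoters lies inside that interval and both accessible shares lie above it. Around the summit, 150 bp to each side, it was found at 11 of 38 (28.9%, 15.4 to 45.9%), against 45.6% of accessible promoters, which lies inside the interval. Within 500 bp of the start it was found at 17 of 40 (42.5%, 27 to 59.1%). Accessible promoters held it in 65.9%, above that interval, and all promoters in 47.5%, inside it. Psma4 held 4 of these boxes, Psmc6 and Psma7 held 3 each, and the others were Psmc4, Psmd2, Psmd5, Psmd14 and Psme4. The interferon response core GAAANNGAA was found in 6 of 40 (15%, 5.71 to 29.8%), against 8.27%, at Psmb3, Psmb4, Psmd4, Psmd9, Psme1 and Psmg4. Of the members known to answer to interferon, Psme1 held it and Psme2 and Psmb10 did not.

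For each of the other motifs the share in all promoters lay inside the exact binomial interval of the proteasome promoters. CCAATCA, the box bound by NF-Y, was found in 4 of 40 against 9.64%. The E-box CACGTG was found in 4 of 40 against 8.20%. GCATGCGC, part of the site of nuclear respiratory factor 1, was found in 3 of 40 against 3.81%, at Psma2, Psmc5 and Psmg1. AAGATGGC, a YY1 site, was found in 3 of 40 against 3.35%, at Psma2, Psmb6 and Psmc5. The heat shock pair TTCNNGAA was found in 2 of 40 against 7.48%, at Psmd4 and Psme3. The AP-1 site TGACTCA was found at Psmd9 alone, 1 of 40 against 4.59%. CTCGCGAG, a palindrome of CpG-rich promoters, was found at Psmd5 alone, against 1.36%. None of the 40 held TGACGTCA, the cyclic AMP element (2.49% of all promoters), ACTACAATT, part of a Znf143 site (0.581%), GGGANTTTC, part of an NF-kB site (1.14%), or GGTGGCAAA, the proteasome element of budding yeast (0.208%), and each of these 0 counts has an interval of up to 8.81%. The AP-1 letters also occur within the extended antioxidant element.

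Each region was given to the gene whose start was closest to its summit, up to 100 kb away, and 73 went to proteasome genes, 1.52 a gene against 1.25 over all genes. Of these 41 were promoter regions. The other 32 were distal, 0.667 a gene against 0.740, and 17 of 48 genes (35.4%, 22.2 to 50.5%) had at least 1, against 31.6% of all genes. Intergenic sequence held 22 of the distal regions, introns 8 and exons 2, and 7 lay inside the member itself. Their median distance from the start was 9370 bp, against 17295 bp over all 16179 distal regions, and 16 of 32 lay within 10 kb. The median fold was 12.9, against 12, and 8 distal regions were higher than the promoter region of their own gene. The counts by place, within 10 kb and above the own promoter were not set against those of all genes.

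More than 1 distal region was assigned to 6 of 48 members (12.5%, 4.73 to 25.2%), against 15.4% of all genes. Psmg1 had 5, and the highest of them, with a fold of 19.7 against 11.5 at its promoter, lay 97238 bp downstream of the start. Psma1 had 4, all upstream, with folds of 19.5, 15.6, 6.35 and 18.7 at 5741, 25529, 40491 and 41476 bp, against 14.2 at its promoter. Psma3 had folds of 9.97, 5.56 and 16.1, all below the 19.2 of its promoter. Psma6 had 11.1, 7.40 and 7.02, against 24.5 at its promoter. Psmd4 had 17.8, 15.2 and 12.9, against 20.7, and Psmg4 had 15.6, 11.9 and 14.9, against 17.1. The nearest start need not be that of the gene a distal region acts on, and the assignment was not tested.

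**Figure D5:**
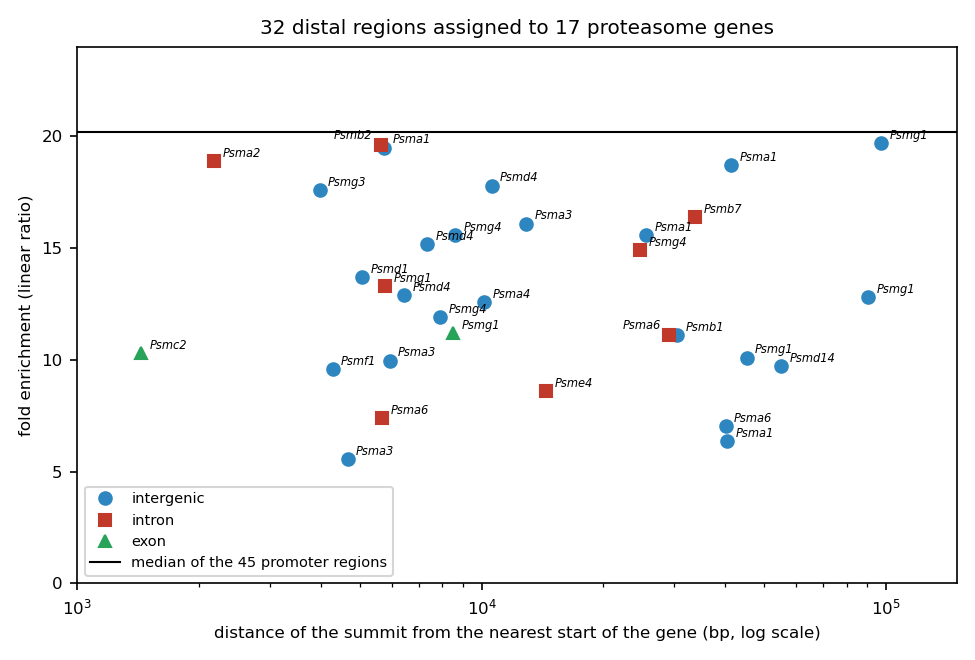
The 32 distal regions assigned to proteasome genes, by distance of the summit from the nearest start of the gene (bp, log scale) and fold enrichment (linear ratio), with the gene's name beside each point and the symbol giving its place. All lie below the line at 20.2, the median of the 45 promoter regions.

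Of 30 other genes of the ubiquitin and proteasome pathway, 29 had a promoter region, against 49.7% of all protein-coding genes. Their median fold was 16.4, against 16.4 over all genes with a promoter region. The exception was Nploc4, a cofactor of the unfoldase Vcp. Among the highest were Nfe2l1, which drives proteasome genes, with 23.2, and Vcp with 21.3. Nfe2l2, a relative of Nfe2l1 that also binds antioxidant response elements, had 7.62. The proteasome genes had a median of 20.2 and the rest of their pathway 16.4, a difference that was not tested.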

How the data were processed

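ATAC-seq peaks of Treg cells from 2 technical replicates of 1 biological replicate were used as deposited on mm10 in 3 lists (pseudoreplicated, IDR-thresholded and IDR-ranked), which the labels give for both samples alike, so the libraries were taken as pooled. Not given in the sources used here were the aligner, the peak caller, their versions, read filters and the Tn5 shift. Depth is unknown. The deposited values are a whole-number score, a fold (a linear ratio over a background the authors do not state), and −log10 p- and q-values; in the ranked list the authors also give the −log10 p of both sets. A local background would make fold depend on the surroundings of a peak. Fold was used only within a list.

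Touching or overlapping peaks of the IDR-thresholded list were merged, and the peak of greatest fold gave fold and summit. Positions were read with GENCODE M21 and GRCm38.p6, counted from 1. Of several promoter regions the highest was used, and of several RefSeq promoters the one nearest to its summit. Values were printed for the 6 highest and 6 lowest members, those without a promoter region, catalytic subunits, activators, and members with several promoter or distal regions; other members named were chosen after their values were seen. Of the other pathway genes, those without a promoter region and the 3 highest were to be named, of which 1 is not reported here; Nfe2l2, Psmb8 and Psmb9 were named besides. The members and lists were chosen with earlier results of these data known. Shares have 95% Clopper-Pearson intervals. Python 3.11.15, numpy 2.4.6, pandas 2.3.3, scipy 1.17.1 and matplotlib 3.10.9 were used, and merging, assignment and motif search were tested on simulated data.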

Additional observations from a re-analysis of the deposited data

How the results depend on the processing

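Of 59 alternative values, 51 stayed within the interval or, for counts, within 1.5 times of the value reported, and 8 moved. The pseudoreplicated list gave 64 distal regions in place of 32, and over all genes 33670 in place of 16179. Regions in the upper 50% by fold gave a promoter share of 81.2%, against 35.4% of all genes. They gave 15 distal regions, against 6834 over all genes. Counting summits singly gave 164 assigned peaks in place of 73, and over all genes 54878 in place of 27363. Keeping the 43 constitutive members gave a promoter share of 100%, against 49.7% of all genes. The antioxidant response element was found in 0% with the complete element, against 0.373% of all promoters, and in 55.0% within 500 bp on either side of the start, against 34.7%. With the 6-letter core CGGAAG, an alternative added after seeing the data, 92.9% of the cap genes held the ETS core, against 36.4% of the ring genes and 36.2% of accessible promoters. At gene 5′ ends in place of transcript starts the promoter share was 85.4%, against 46.7% of all genes. Leaving out a library could not be done, since the lists pool both. No paired analysis was possible because there was 1 group. The unknown depth limits what an absent region means.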
